A study of Homo sapiens with 6 samples.

Results

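The genes described here are 36 human genes of homologous recombination, the Fanconi anaemia pathway and the checkpoint that acts with them, chosen by symbol from a list of pathway members. All 36 were found among the 62700 gene identifiers of the count table, and all 36 had enough reads to be tested. RNA was sequenced from KYSE510, an established oesophageal squamous cell carcinoma line, in 3 shControl libraries (genotype given as WT) and 3 shRNH1 libraries, in which a short hairpin RNA was aimed at a ribonuclease named RNH1 to set up a model of induced R-loops. The sources used here do not state the hairpin sequence, the time after its delivery, or whether the cells were 1 clone or a pool. The samples are called biological replicates without a statement of how the cultures were kept apart, so a p-value reflects only the spread among these 6 samples.

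Homologous recombination repairs a DNA double-strand break by copying the sister chromatid. The MRE11-RAD50-NBN complex and RBBP8 (CtIP) start to cut back the broken ends, BRCA1, PALB2 and BRCA2 prepare the exposed strand for pairing with the sister, and the strand exchange factors help that step. In the Fanconi pathway a core complex with the E2 enzyme UBE2T attaches ubiquitin to FANCD2 and FANCI at DNA crosslinks, and the kinases ATM and ATR with CHEK2 and CHEK1 signal the damage to the cell cycle. R-loops, in which RNA stays paired with one strand of DNA, are known to stall replication forks, and several of these genes act at such forks.

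The shControl libraries held 40225486 to 41103220 counts each and the shRNH1 libraries 31394687 to 33421217, so depth differed between the groups. RNASEH1, the gene of ribonuclease H1, had 1357, 1344 and 1015 counts under shControl but 251, 247 and 232 counts under shRNH1, a fall to 22.6% of the control level (log2 fold change -2.14 ± 0.12 SE, edgeR's quasi-likelihood test, adjusted p = 1.61e-13). The gene whose official symbol is RNH1, the ribonuclease inhibitor, had 546 ± 97.4 CPM (counts scaled to library size with a TMM composition factor) in shControl and 478 ± 45.5 CPM in shRNH1 (SD, n = 3 each; log2 fold change -0.19, edgeR adjusted p = 0.221). By mRNA level the gene lost in the shRNH1 libraries was thus RNASEH1, and shRNH1 is used below only as the name of the group. Of 9 squamous epithelium markers all 9 were tested, among them KRT17 (399 to 565 CPM in the 6 libraries) and TP63 (47.8 to 57.4 CPM), neither of which passed the test. Of these 9 markers 5 fell and 1 rose. The falls were KRT6A (log2 fold change -2.13, edgeR adjusted p = 8.33e-14), KRT14 (-1.40), KRT5 (-1.33), ITGA6 (-0.42) and SFN (-0.37), and SOX2 rose from 0.748 to 4.78 CPM (2.68, edgeR adjusted p = 1.82e-09). Of 7 leukocyte markers 3 passed the filter on low counts, with ITGAM higher at a low level (0.154 against 0.757 CPM, log2 fold change 2.27, edgeR adjusted p = 6.14e-04). PTPRC, too low to test, had 0, 1 and 0 counts in shControl and 6, 8 and 11 in shRNH1, and the list summed to 6.01 to 7.57 CPM in shControl and 8.06 to 10.3 CPM in shRNH1. Of 7 fibroblast markers 2 passed the filter, COL1A2 and DCN were listed at 0, and the sum of 62.6 to 71.9 against 111 to 133 CPM was nearly all COL1A1. Of the 2 tested, COL1A1 was called higher (log2 fold change 0.98, edgeR adjusted p = 1.88e-08) and 1 was called lower (-0.91). Of 5 endothelium markers 3 passed the filter and KDR was listed at 0, with sums of 20.01 to 21.8 against 18.6 to 20.8 CPM. Of these 3, 1 was called higher (log2 fold change 0.51) and 0 lower. The part of these marker changes in the repair genes was not tested.

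Of the 36 repair genes, 5 passed the test for a change between shRNH1 and shControl. CHEK2, PALB2, MRE11 and FANCF rose, NBN fell, and the other 31 genes did not pass the test at an adjusted p of 0.05. The 5 called genes are 13.9% of the 36, whereas 27.6% of all 19682 tested genes were called, 15.3% as higher and 12.3% as lower. The gap between these shares depended on the settings: it was 27.8% of the 36 against 27.9% of all genes with scaling by library size alone, and 13.9% against 14.5% with no filter on low counts. Among 9904 protein-coding genes within the same range of mean expression 36.5% were called. At an unadjusted p under 0.05 there were 13 of the 36, against 37.3% of all tested genes. The shControl and shRNH1 values did not overlap for 11 of the 36 (30.6%), against 40.0% of all tested genes. For each of the 31 genes that did not pass, the 95% interval of the change lay inside a 1.5-fold change in either direction. A p that misses the threshold does not show that a gene was unchanged.

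The changes were small in size. The median log2 fold change of the 36 genes was 0.03, and that of all tested genes was 0.02, with 22 of the 36 above 0 and 14 below. The median size of the log2 fold change, regardless of direction, was 0.16 in the 36 genes, 0.27 in all tested genes and 0.22 in the protein-coding genes of like expression. A log2 change of at least 0.5 in size was seen for 2 of the 36 genes, CHEK2 and FANCF, and for 26.4% of all tested genes. The summed level of the 36 genes was 1142 to 1263 CPM in the shControl libraries and 1147 to 1222 CPM in the shRNH1 libraries, so these ranges overlapped. In cultures measured in bulk, fewer cells with a transcript and less transcript per cell cannot be told apart.

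**Figure D1:**
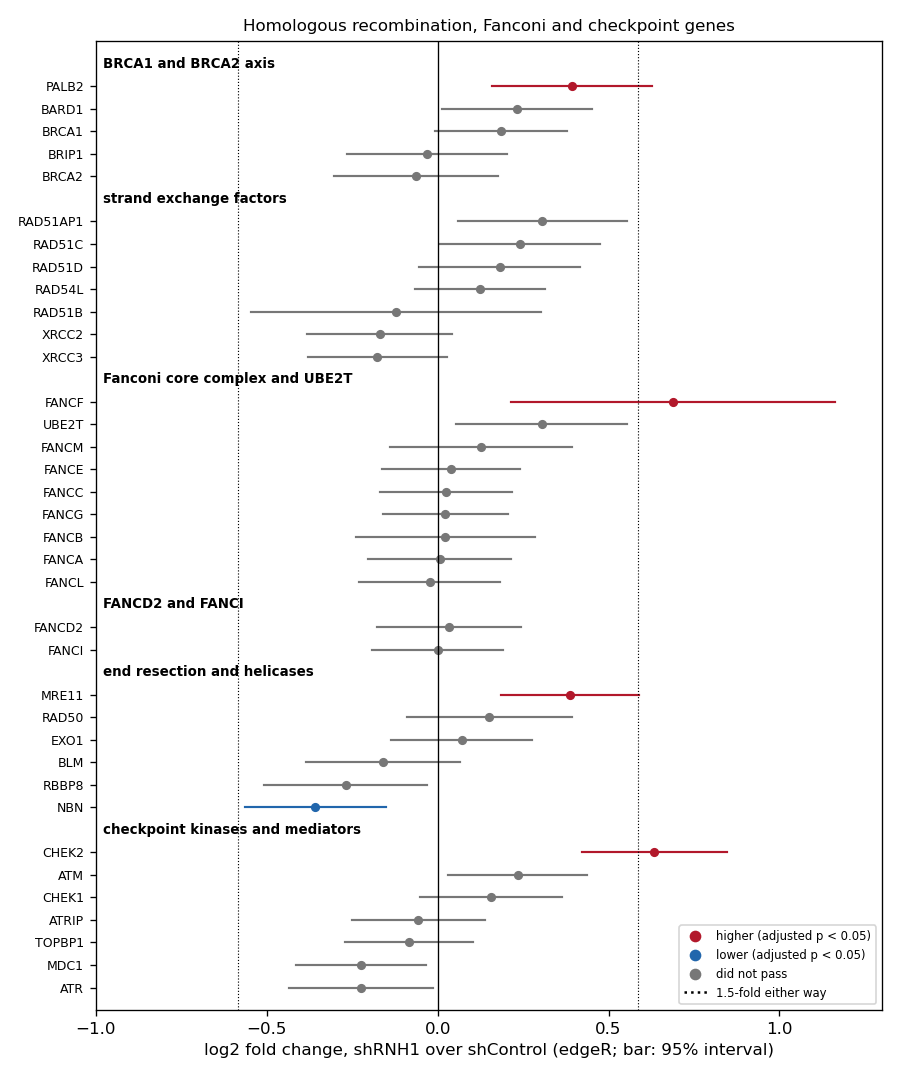
Log2 fold change of the 36 repair genes, shRNH1 against shControl, grouped by role, where each point is the estimate and its bar the 95% interval. CHEK2, PALB2, MRE11 and FANCF lie above 0 and NBN below 0 among the called genes, and the other intervals stay inside a 1.5-fold change.

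Measured per kilobase of merged exons, the mean level in shControl was highest for MDC1 (23.5 CPM per kb), a scaffold of the damage response, followed by the core complex gene FANCG (15.5) and the DNA motor gene RAD54L (14.3). Of the exonic bases of RAD54L, 25.1% are shared with LRRC41 on the opposite strand, which stood at 206 CPM in shControl, so the level and place of RAD54L are uncertain where counting did not use the strand. The lowest levels per kilobase were those of RAD51B (0.378 CPM per kb), FANCF (0.577) and FANCM (1.04). FANCF and RAD51B also had the fewest reads, and their standard errors were the widest of the set (0.23 and 0.21 on the log2 scale, against a lowest value of 0.089 for FANCG). Read depth was therefore a stronger limit for these 2 genes than for the other members.

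Promoter sequences are shown for the 4 genes that rose, because all 4 carried the same short motif near their RefSeq start. This motif was picked from the 4 searched after that was seen, so it is no support for a link with the rise. The sequence from 250 bases before to 50 bases after each start, taken from RefSeq on GRCh38.p14, was found for 34 of the 36 genes, without FANCI and NBN. The motif CCAAT, or its reverse complement ATTGG, is the recognition sequence of the factor NF-Y. It was present in the window of 17 of these 34 genes , in 39.7% of 27305 genes with a window and in 43.1% of 10724 tested protein-coding genes. All 4 genes that rose held it, as did 13 of the 30 genes that did not pass the test. Each line below gives 30 bases of the minus strand, 5′ to 3′, with the motif in capitals. The FANCF stretch is chr11:22625859-22625888, MRE11 is chr11:94493890-94493919, PALB2 is chr16:23641320-23641349 and CHEK2 is chr22:28741844-28741873.
FANCF: tttcgcggatgttCCAATcagtacgcagag
MRE11: ctgcgtgcggtagCCAATgagagccgaact
PALB2: aatggtggatttaATTGGccggagtttagg
CHEK2: ggagggggttttgATTGGctgagggtggag

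The stretches begin 65 (FANCF), 75 (MRE11), 39 (PALB2) and 53 (CHEK2) bases before the RefSeq start. E2F factors drive many S phase genes, and their motif, searched on both strands as TTTCCCGC, TTTCGCGC, TTTGCCGC or TTTGGCGC, was present in 6 of 34 genes (17.6%), against 3.99% of all genes with a window and 6.53% of tested protein-coding genes. These 6 genes were EXO1, FANCA, FANCC, FANCD2, TOPBP1 and XRCC2, and none of them passed the test for a change in level. FANCC and FANCA are shown as examples with the E2F motif in capitals, at chr9:95317737-95317766 and chr16:89816801-89816830, both on the minus strand.
FANCC: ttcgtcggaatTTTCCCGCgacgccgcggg
FANCA: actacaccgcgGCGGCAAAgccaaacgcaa

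The cell cycle motif TTTGAA was present in 5 of the 34 genes (14.7%), against 18.2% of all genes with a window and 13.8% of tested protein-coding genes. The ETS motif CCGGAAGT was also present in 5 (14.7%), against 4.95% and 9.48%. A match is a description of the letters and does not show that a factor binds there.

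In the BRCA1 and BRCA2 axis 1 of 5 genes rose and none fell. PALB2, which bridges BRCA1 and BRCA2, lies at chr16:23603160-23641310 on the minus strand in GENCODE 29 on GRCh38. Its level was 10.5, 12.2 and 12.4 CPM in shControl and 15.6, 14.3 and 16.2 CPM in shRNH1. Every shRNH1 library was above every shControl library. The rise was 1.31-fold (log2 fold change 0.39 ± 0.11 SE, edgeR adjusted p = 0.0101). Without shControl replicate 1, the lowest library for this gene, the log2 fold change was 0.32 and the adjusted p by edgeR was 0.0781.

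BRCA1, the ubiquitin ligase that acts early in recombination, stood at 38.6, 37.0 and 35.1 CPM in shControl and at 41.4, 39.8 and 44.8 CPM in shRNH1. The groups did not overlap, but the change did not pass the test (log2 fold change 0.19, edgeR adjusted p = 0.155). Its partner BARD1 gave a log2 value of 0.23 (edgeR adjusted p = 0.112), again with groups that did not overlap. BRCA2, mutated in hereditary breast and ovarian cancer, was at 16.9, 18.7 and 16.4 CPM in shControl and 16.3, 14.2 and 19.4 CPM in shRNH1. Its shRNH1 libraries spread on both sides of the controls (log2 fold change -0.06, edgeR adjusted p = 0.743). The helicase BRIP1 gave -0.03. The ratio of PALB2 to BRCA2 counts within a library, which does not depend on library scaling, was 0.622, 0.651 and 0.752 in shControl and 0.957, 1.01 and 0.833 in shRNH1, without overlap.

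**Figure D2:**
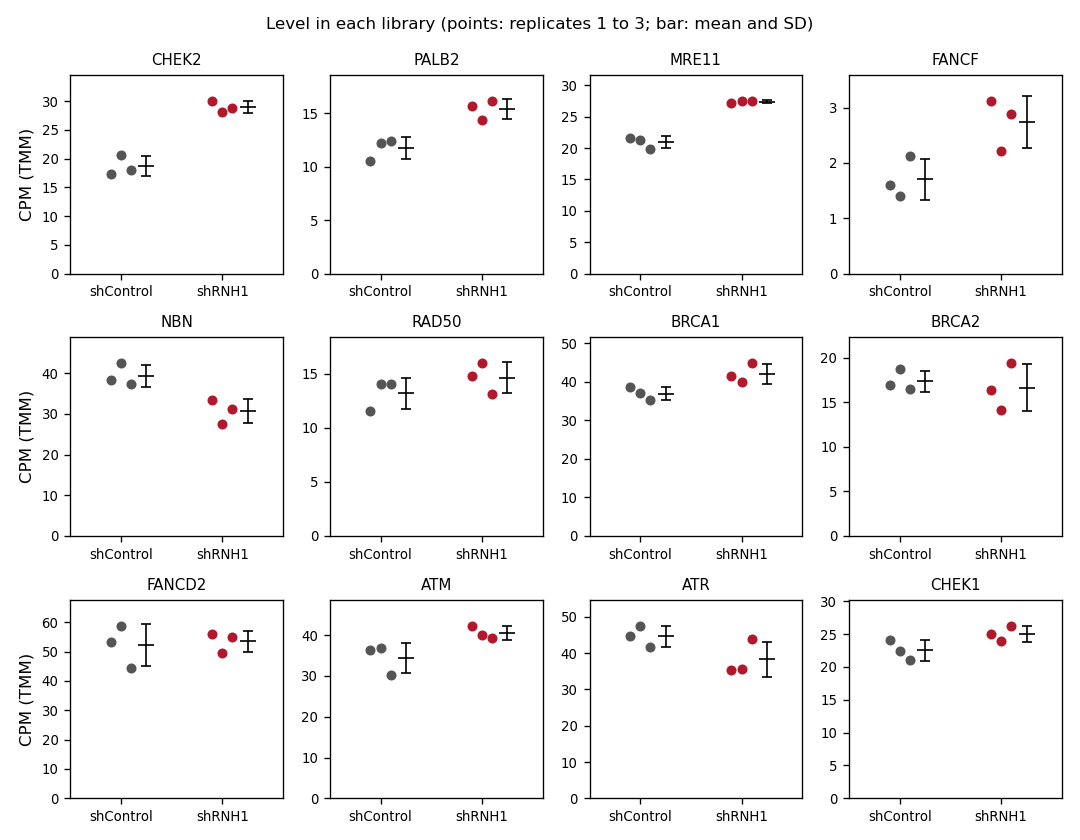
Level of 12 of the repair genes in each library, in CPM after TMM scaling on axes that start at 0, with the mean and SD of 3 libraries beside the points. CHEK2, PALB2, MRE11 and FANCF are higher in every shRNH1 library and NBN is lower, whereas BRCA2, FANCD2 and RAD50 overlap between groups.

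Among the strand exchange factors 0 of 7 genes were called in either direction, against 27.6% of all tested genes. RAD51AP1, which stimulates strand pairing, had the largest log2 value of the 7, at 11.6, 10.2 and 11.1 CPM in shControl and 13.9, 11.7 and 15.1 CPM in shRNH1 (log2 fold change 0.31, edgeR adjusted p = 0.0600). RAD51C, which is also known as FANCO, was at 10.8 to 13.3 CPM against 14.1 to 14.9 CPM, with groups that did not overlap (0.24, edgeR adjusted p = 0.124). RAD51D gave 0.18, the motor protein RAD54L 0.12 and RAD51B -0.12, while XRCC2 and XRCC3 gave -0.17 and -0.18 on the same log2 scale. Of the exonic bases of XRCC3, 76.7% are shared with KLC1 on GRCh38, so its count is uncertain where the strand was not used in counting.

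In the Fanconi core complex with UBE2T 1 of 9 genes rose and none fell (11.1% called, against 27.6% of all tested genes). FANCF, an adaptor of the core complex, lies at chr11:22622890-22625841 on the minus strand and has a single exon. Its counts were 62, 58 and 78 (shControl) and 106, 78 and 95 (shRNH1), which correspond to 1.59, 1.40 and 2.12 CPM against 3.13, 2.22 and 2.88 CPM. The groups came close, with the highest control at 2.12 and the lowest knockdown library at 2.22 CPM. The rise was 1.61-fold (log2 fold change 0.69 ± 0.23 SE, edgeR adjusted p = 0.0260). It did not pass in 4 of the 6 analyses that each left out 1 library, namely those without shControl replicate 1 (edgeR adjusted p = 0.0774), shControl replicate 2 (0.110), shRNH1 replicate 1 (0.134) or shRNH1 replicate 3 (0.0729).

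UBE2T, the E2 enzyme of the complex, had 18.4, 16.6 and 12.9 CPM in shControl and 19.9, 17.8 and 21.5 CPM in shRNH1 (log2 fold change 0.30, edgeR adjusted p = 0.0648). The shRNH1 replicate 2 library lay below shControl replicate 1, so the groups overlapped. FANCM, the translocase that anchors the core complex to DNA, was at 8.19, 9.85 and 8.44 CPM in shControl and 9.23, 10.8 and 8.88 CPM in shRNH1 (0.13, edgeR adjusted p = 0.522). The other 6 core genes, FANCA, FANCB, FANCC, FANCE, FANCG and FANCL, the last of which is the ubiquitin ligase, had log2 fold changes from -0.02 to 0.04. These 6 values are smaller than the lowest standard error of the set. Of its exonic bases FANCA shares 23.6% with ZNF276 and FANCL 18.7% with VRK2, both on the opposite strand. Their counts are thus uncertain where the strand was not used in counting. Among the 36 genes, 21 share exonic bases with another gene.

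FANCD2 and FANCI, the pair that receives ubiquitin from the core complex, gave 0 calls of 2 genes, where 27.6% of all tested genes were called. FANCD2 was at 53.3, 58.9 and 44.6 CPM in shControl and 55.9, 49.5 and 55.1 CPM in shRNH1 (log2 fold change 0.03, 95% interval -0.18 to 0.24, edgeR adjusted p = 0.855). FANCI was at 76.6, 78.2 and 69.0 CPM in shControl and 72.0, 70.5 and 81.3 CPM in shRNH1 (0.00 after rounding, 95% interval -0.19 to 0.19, edgeR adjusted p = 0.999). Both genes overlapped between groups. The count ratio of FANCD2 to FANCI also overlapped, at 0.646 to 0.753 in shControl and 0.678 to 0.777 in shRNH1.

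In end resection and helicases 1 of 6 genes rose and 1 fell (33.3% called, against 27.6% of all tested genes). Both called genes belong to the same complex. MRE11, the nuclease of the MRE11-RAD50-NBN complex, lies at chr11:94415578-94493908. It was at 21.7, 21.3 and 19.8 CPM in shControl and 27.2, 27.5 and 27.5 CPM in shRNH1, so the shRNH1 libraries differed little among themselves and all exceeded the controls. The rise was 1.31-fold (log2 fold change 0.39 ± 0.10 SE, edgeR adjusted p = 0.00364). NBN, which recruits ATM to the complex, was at 38.3, 42.5 and 37.2 CPM in shControl and 33.4, 27.5 and 31.2 CPM in shRNH1. All shRNH1 libraries were below all controls, at 78.0% of the control level (log2 fold change -0.36 ± 0.10 SE, edgeR adjusted p = 0.00810). Without shControl replicate 2, the highest library, the log2 fold change was -0.31 (edgeR adjusted p = 0.0558), and with scaling by library size alone it was -0.25 (edgeR adjusted p = 0.0939).

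RAD50, the ATPase of the complex, was at 11.6, 14.0 and 14.1 CPM in shControl and 14.8, 16.0 and 13.2 CPM in shRNH1 (log2 fold change 0.15, edgeR adjusted p = 0.380), with overlapping groups. The ratio of MRE11 to NBN counts was 0.565, 0.503 and 0.532 in shControl and 0.814, 1.00 and 0.880 in shRNH1. This ratio was free of any library scaling, and its mean was 1.69 times as high in shRNH1, without overlap. NBN to RAD50 was 3.32, 3.03 and 2.65 in shControl and 2.25, 1.72 and 2.37 in shRNH1, also without overlap. MRE11 to RAD50 overlapped between groups. Most of the exonic bases of RAD50 (79.7%) also belong to a readthrough transcript on the same strand that was listed at 0. How reads on shared bases were counted is not known here, so the RAD50 count and both ratios with it are uncertain.

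RBBP8 (CtIP), which activates the nuclease of the complex, was at 19.96, 24.9 and 21.4 CPM in shControl and 19.5, 15.5 and 20.01 CPM in shRNH1 (log2 fold change -0.27, edgeR adjusted p = 0.0861). The highest shRNH1 library was just above the lowest control. BLM, the helicase mutated in Bloom syndrome, was at 17.4, 17.6 and 18.9 CPM in shControl and 14.8, 15.5 and 18.1 CPM in shRNH1 (-0.16, edgeR adjusted p = 0.312), with overlap through shRNH1 replicate 3. The exonuclease EXO1 gave a log2 value of 0.07.

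**Figure D3:**
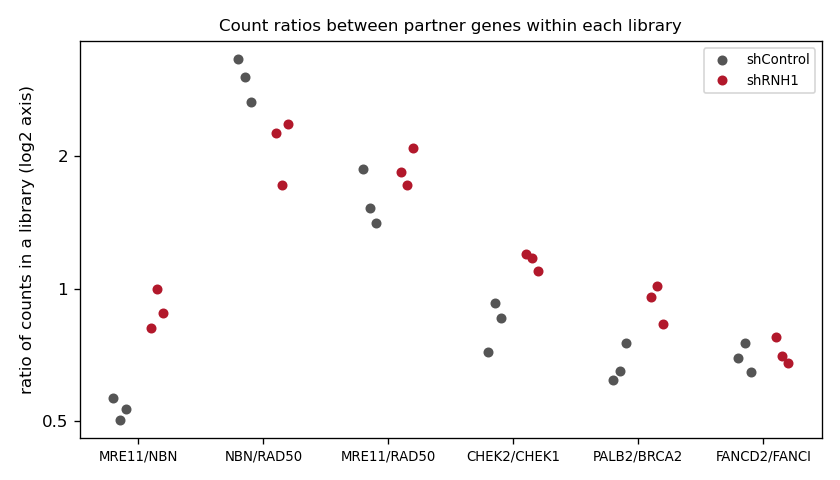
Ratio of the counts of pairs of repair genes in each library, which does not depend on library scaling. MRE11 to NBN, CHEK2 to CHEK1 and PALB2 to BRCA2 are higher in every shRNH1 library, NBN to RAD50 is lower, and MRE11 to RAD50 and FANCD2 to FANCI overlap.

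Of the 7 checkpoint kinases and mediators 1 rose and none fell (14.3% called, against 27.6% of all tested genes). CHEK2, the effector kinase of ATM, lies at chr22:28687743-28742422 on the minus strand. Its counts were 675, 856 and 663 (shControl) and 1020, 987 and 951 (shRNH1), which correspond to 17.3, 20.7 and 18.0 CPM against 30.1, 28.1 and 28.8 CPM. Each shRNH1 library was well above each control. The rise was 1.55-fold (log2 fold change 0.63 ± 0.10 SE, edgeR adjusted p = 3.21e-05), the smallest adjusted p of the 36 genes. The CHEK2 pseudogenes, 8 gene identifiers under 7 symbols, were listed at 0 in all libraries, and whether the counting could have shared reads with them is not known here.

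CHEK1, the effector kinase of ATR, was at 24.1, 22.4 and 21.0 CPM in shControl and 25.03, 23.9 and 26.3 CPM in shRNH1 (log2 fold change 0.16, edgeR adjusted p = 0.276), with slight overlap. The ratio of CHEK2 to CHEK1 counts was 0.719, 0.925 and 0.855 in shControl and 1.20, 1.18 and 1.10 in shRNH1. CHEK2 was thus below CHEK1 in count in every control and above it in every shRNH1 library, which is a statement on reads and not on molecules, since the genes differ in length.

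The upstream kinases gave values of opposite sign, neither of which passed the test. ATM was at 36.3, 36.8 and 30.2 CPM in shControl and 42.3, 40.0 and 39.2 CPM in shRNH1 (log2 fold change 0.23, edgeR adjusted p = 0.0818), with groups that did not overlap. ATR was at 44.7, 47.6 and 41.7 CPM in shControl and 35.3, 35.5 and 43.9 CPM in shRNH1 (-0.22, edgeR adjusted p = 0.107), with overlap through shRNH1 replicate 3. The ratio of ATM to ATR counts was 0.812, 0.773 and 0.724 in shControl and 1.20, 1.12 and 0.893 in shRNH1, without overlap. MDC1, the scaffold that holds the damage signal on chromatin, was at 187, 197 and 185 CPM in shControl and 178, 156 and 154 CPM in shRNH1 (-0.22, edgeR adjusted p = 0.0729), also without overlap. The ATR activator TOPBP1 gave -0.08 and the ATR partner ATRIP -0.06. ATRIP shares 27.9% of its exonic bases with TREX1 on the same strand, which was listed at 0 in all libraries, so its count is uncertain as well.

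All 4 genes that rose have another gene starting close by on the opposite strand, as do 20 of the 36 within 1000 bp. DCTN5, a dynactin subunit that starts 82 bp from PALB2, was at 57.9, 54.6 and 52.0 CPM in shControl and 95.6, 80.4 and 96.1 CPM in shRNH1. DCTN5 rose in all 3 shRNH1 libraries (log2 fold change 0.73 ± 0.10 SE, edgeR adjusted p = 1.73e-06), and the genes share no exonic base. ANKRD49, which faces MRE11 at 279 bp and shares 225 exonic bp with it, gave 0.34 (edgeR adjusted p = 0.0914). HSCB, an iron-sulphur cluster co-chaperone that faces CHEK2 at 391 bp and shares 301 exonic bp, gave 0.11 (edgeR adjusted p = 0.733). GAS2, which faces FANCF at 332 bp and shares 333 exonic bp, had at most 5 counts in a library and was not tested. The sources used here do not say whether counting used the strand, so reads from shared bases cannot be told apart.

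Both genes were tested in 11 such pairs. Both log2 fold changes were above 0 in 6 pairs, none had both below 0, and 5 had opposite signs. Several signs lay within their error, such as ZFYVE21 (0.01 ± 0.11 SE), which faces XRCC3, and TEX14 (-0.46 ± 0.47 SE), which faces RAD51C. Neither the share of all genes with such a neighbour nor that of pairs with like signs was computed. Besides DCTN5, C12orf4 was the other partner gene that passed the test. It starts 290 bp from RAD51AP1 and fell by 0.33 on the log2 scale (edgeR adjusted p = 0.0363), in the opposite direction to the 0.31 of RAD51AP1. It did not pass in 7 of the 15 alternative analyses, with adjusted p values up to 0.227. NBR1, which faces BRCA1, gave 0.14, and NPAT, the histone gene regulator that faces ATM, gave 0.15, and neither passed the test.

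**Figure D4:**
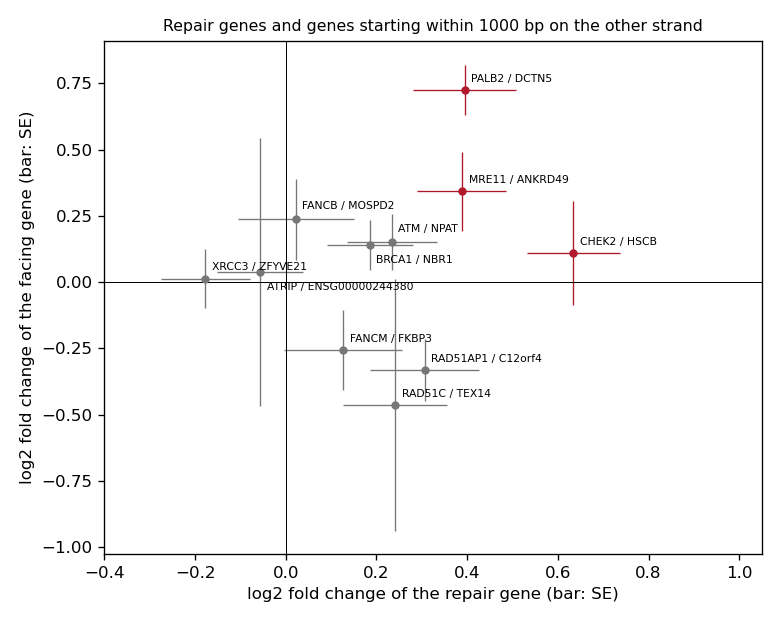
Log2 fold change of each repair gene (x axis) against that of the gene that starts within 1000 bp on the opposite strand (y axis), for the 11 pairs in which both were tested, with SE bars and red for repair genes that rose. PALB2 and DCTN5 lie highest on the y axis, and RAD51AP1 and C12orf4 have opposite signs.

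Other genes of DNA repair and the checkpoint, from a list of 84 that holds none of the 36, changed in both directions. Of the 83 that were tested, 10 rose and 10 fell (24.1%), and the median log2 fold change was 0.03. The smallest adjusted p belonged to RMI2, a partner of the BLM helicase, at 5.47, 5.44 and 6.65 CPM in shControl and 15.04, 14.8 and 15.4 CPM in shRNH1 (log2 fold change 1.37, edgeR adjusted p = 3.47e-09). HLTF, a fork-remodelling translocase, rose (0.55, edgeR adjusted p = 5.78e-05), as did RPA3, the small subunit of the single-strand binding protein (0.66, 2.02e-04). FIGNL1, an ATPase of recombination, rose by 0.55 (edgeR adjusted p = 4.72e-04) and the nuclease gene ERCC4 (XPF, also FANCQ) by 0.59 (8.02e-04). CDC25A, the phosphatase that CHEK1 and CHEK2 mark for destruction, fell by 0.52 on the log2 scale (edgeR adjusted p = 6.04e-05).

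Many repair genes follow the cell cycle, so cycle genes are given beside them. Of 36 S phase genes 8 rose, among them E2F2 (log2 fold change 0.68), E2F1 (0.49), the helicase subunit MCM6 (0.38) and the sliding clamp PCNA (0.36), and 5 fell, among them the nucleotide synthesis genes TYMS (-0.59) and TK1 (-0.34). Their summed level was 4743 to 5166 CPM in shControl and 4744 to 4926 CPM in shRNH1. Of 30 G2 and mitosis genes 1 rose and 7 fell, among them CDC20 (-0.65), CCNB1 (-0.43), CENPA (-0.38), AURKA (-0.37), AURKB (-0.37) and KIF23 (-0.35), and the median was -0.18. CENPA and KIF23 did not pass with scaling by library size alone (edgeR adjusted p = 0.0576 and 0.0724). The summed level of the 30 genes was 5238 to 5676 CPM in shControl and 4432 to 4753 CPM in shRNH1, without overlap. Called genes made up 36.1% of the S phase list and 26.7% of the G2 and mitosis list. The share was 27.6% over all tested genes and 36.5% over protein-coding genes within the repair genes' range of mean expression. The part of these cell cycle genes in the changes of the 36 genes was not tested.

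How many repair genes were called in each direction depended on the scaling. The TMM factors were 0.912 to 1.007 in shControl and 1.016 to 1.052 in shRNH1, without overlap. With scaling by library size alone, 10 of the 36 genes were called higher and 0 lower, against 4 and 1 with TMM, and the median of all tested genes moved from 0.02 to 0.13. Over all tested genes this setting called 4065 higher and 1433 lower, against 3006 and 2418. With an offset for GC content and transcript length, 4 of the 36 were higher and 6 lower, the 6 being NBN, RBBP8, ATR, MDC1, XRCC2 and XRCC3. Lower calls also became more frequent over all 18754 genes tested with that offset, at 3521, with 2915 higher. It called 27.8% of the 36 genes against 34.3% of all genes. CHEK2 and MRE11 passed as higher in each of the 15 alternative analyses, with edgeR, DESeq2 or limma log2 fold changes of 0.58 to 0.74 for CHEK2 and 0.31 to 0.50 for MRE11. The count ratios within a library given above do not depend on library scaling. The offset for expression level and that for GC content and length act on genes unequally and are not covered by this.

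**Figure D5:**
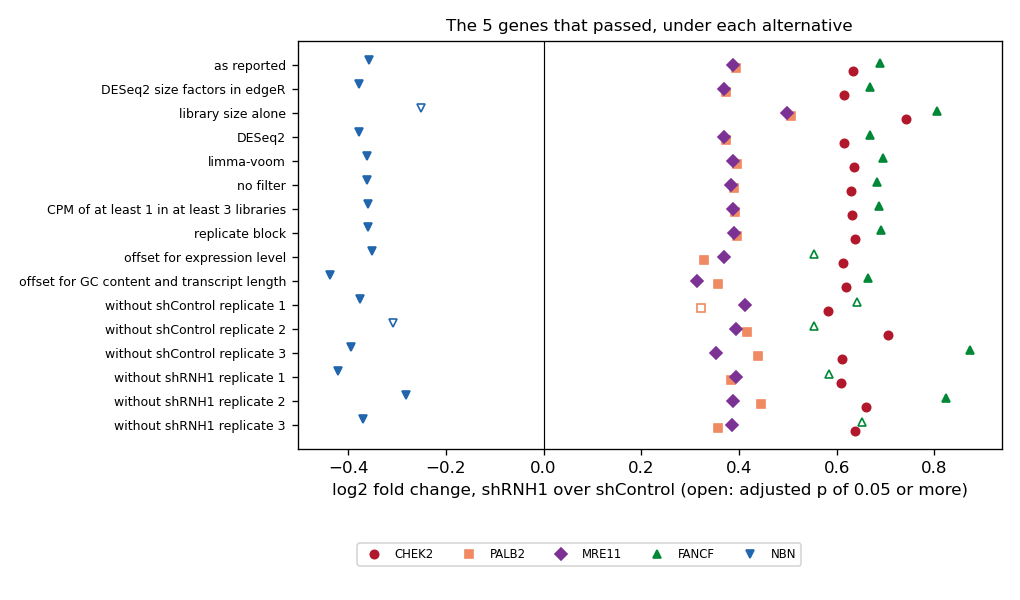
Log2 fold change of the called repair genes under each of the 15 alternative analyses beside the reported one, with open points where the adjusted p is 0.05 or more. CHEK2 and MRE11 stay filled throughout, and FANCF, NBN and PALB2 each lose the call in at least 1 alternative.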

How the data were processed

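Poly(A) RNA of 3 shControl and 3 shRNH1 samples of KYSE510 was sequenced, per the labels' protocols. The authors deposited raw counts, whole numbers for 62700 Ensembl gene identifiers in each library, with no normalisation. The submitters' processing notes name GRCh38 and the tools HISAT2, StringTie and DESeq2. Not given in the sources used here: which step each tool served, its version, how reads were counted, whether strand was used and which annotation was taken. Count columns were matched to samples through the sample descriptions, with 0 columns left over.

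shRNH1 was compared with shControl on the deposited counts by the quasi-likelihood test of edgeR 4.0.16 (run under R 4.3.3), with TMM scaling, filterByExpr, no covariate and Benjamini-Hochberg adjustment over all 19682 tested genes at 0.05. Standard errors and 95% intervals come from this fit and cover the spread between samples. Levels are TMM-scaled CPM, and levels between genes are compared only per kilobase of merged exons of GENCODE 29, which held 58207 of the identifiers. Promoter windows and their sequences come from RefSeq on GRCh38.p14. The test functions were tested on simulated data. With 3 libraries a group, an exact permutation test cannot go below p = 0.1, the value it gave for RNASEH1.

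The 36 members and the other gene lists were chosen with earlier results of these data known. Values in every library are given for members that passed the threshold and for a set list of main pathway genes, and for up to 6 genes with the smallest adjusted p in each other list, in part as log2 fold changes only. RAD51AP1, UBE2T, RAD50, MDC1, C12orf4, NBR1, NPAT and the genes under other observations were added after their values were seen. Other genes of these lists are given only as counts, and 1 result on a repair gene is not reported here. Within each group the libraries differed beyond sampling noise (chi-square 6.61 to 21.0 per gene), so none was counted as a copy. The 15 alternatives were scaling by library size alone or by the size factors of DESeq2, the tests of DESeq2 1.42.0 and of limma 3.58.1 with voom, no filter, a filter at a CPM of 1 in 3 libraries, the replicate number as a block, an offset for expression level, an offset for GC content and transcript length (known for 95.3% of tested genes), and leaving out each of the 6 libraries.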

Additional observations from a re-analysis of the deposited data

How the results depend on the processing

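Of the 5 called repair genes, CHEK2 and MRE11 passed in all 15 alternatives, and the log2 fold changes of all 5 kept their sign. With scaling by library size alone the 36 genes had 10 higher and 0 lower calls and a median log2 fold change of 0.14, all tested genes had 1433 lower calls, and the other repair and checkpoint genes had 6 lower. With the offset for GC content and transcript length, 6 of the 36 genes and 16 of the other repair genes were lower, and RNH1 passed as lower (log2 fold change -0.25, edgeR adjusted p = 0.0352). All tested genes had 3521 lower calls with that offset, against 2418 as reported. DESeq2 called 2 of the 36 genes lower, NBN and MDC1. Leaving out each library in turn gave 3 to 7 higher and 0 to 2 lower calls among the 36. The 7 came without shRNH1 replicate 2 and included BARD1, RAD51AP1 and UBE2T. These 6 analyses called 8.33% to 22.2% of the 36 genes, against 19.8% to 25.6% of all tested genes. There were 0 lower calls without shControl replicate 2, and 2 lower calls without shRNH1 replicate 1 (NBN and MDC1) or without shRNH1 replicate 3 (NBN and ATR). FANCF also lost its call with the offset for expression level (edgeR adjusted p = 0.0785). Beyond the design of each alternative, the cause of these differences was not tested. Of 1184 values of 79 genes followed singly, 28 lost and 26 gained a call, and 59 had the opposite sign to the reported value. These 59 came from 19 genes, 12 of them among the 36, and 0 of the 19 had passed the reported test. The genes with fewest reads, FANCF and RAD51B, had the widest errors.

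The deviations of same-numbered libraries correlated at 0.045, 0.056 and -0.049. With 3 libraries a group these values cannot settle whether the replicate numbers pair the samples. With the replicate number as a block, the 36 genes had 4 higher and 1 lower calls, as without it, and all tested genes had 2938 higher and 2156 lower calls. Not every library correlated best with its own number.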

Other observations

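In some complexes that work with the 36 genes, a subunit passed the test while another did not pass or passed in the opposite direction. These complexes were picked from the list of other repair genes after their values were seen. In the complex that BLM forms to undo crossed DNA strands, RMI1 was at 11.1, 9.10 and 8.44 CPM in shControl and 13.2, 13.1 and 14.9 CPM in shRNH1 and rose (log2 fold change 0.52, edgeR adjusted p = 0.00211), as RMI2 did. TOP3A, the topoisomerase of that complex, was at 113, 118 and 114 CPM in shControl and 104, 88.3 and 91.8 CPM in shRNH1 (-0.28, edgeR adjusted p = 0.0240), and it did not pass in 7 of the 15 alternatives. BLM itself gave -0.16 and did not pass.

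Of the subunits of replication protein A, which coats single-stranded DNA, RPA3 was at 10.8, 9.12 and 9.17 CPM in shControl and 13.5, 14.7 and 17.8 CPM in shRNH1 and rose. RPA1 and RPA2 gave log2 values of -0.10 and -0.17, and neither passed (edgeR adjusted p = 0.455 and 0.272). Among the nucleases that cut branched DNA, MUS81 was at 62.0, 62.3 and 69.9 CPM in shControl and 52.7, 50.2 and 49.4 CPM in shRNH1 and fell by 0.35 on the log2 scale (edgeR adjusted p = 0.00491). The MUS81 call was lost with scaling by library size alone (edgeR adjusted p = 0.0521). Its partner EME1 gave 0.07 and did not pass, while EME2 rose by 0.35 (edgeR adjusted p = 0.0167) and lost its call in 3 of the 15 alternatives. ERCC4 rose, its partner ERCC1 gave 0.01, and the scaffold SLX4 gave 0.22 without passing (edgeR adjusted p = 0.104).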
